A study of Pyrus communis with 12 samples.

Results

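Pears of the European cultivar 'Abate Fetel' (Pyrus communis) were compared at both ends of the harvest window. The latest harvesting stage, H4, was collected 147 days after full bloom (harvest week 4 in the sample labels) and the earliest, H1, 120 days after full bloom (harvest week 1), a distance of 27 days. Each stage is represented by 3 RNA-seq libraries of peeled flesh, which the study describes as biological replicates, so that 6 of the 12 libraries of the series are compared. The other 6 libraries belong to H2 (127 days) and H3 (140 days) and were used to place the change in time. They also entered the filter on low counts, the scaling and the estimate of spread behind every call. All fruit was analysed at harvest, with no cold storage and no treatment. Within each stage the authors kept fruit of one narrow class of the chlorophyll absorbance index, and this class was lower at each later stage, so that time on the tree and index class cannot be told apart. The table lists 45217 genes, of which 14378 had no count in any library. The 23155 genes with at least 1 CPM (counts per 1000000 counts of a library) in at least 3 libraries were tested, and all of them form the account below. This filter used CPM before TMM scaling, while the CPM values given below are after it.

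Pear is a climacteric fruit, in which ripening goes along with a burst of the gaseous hormone ethylene. Ethylene is made from methionine through ACC synthase (ACS) and ACC oxidase (ACO), is perceived by receptors such as ERS that repress the pathway while no ethylene is bound, and acts at the end of the cascade through ethylene response factors (ERF). Among its known downstream processes are the solubilisation of pectin in the cell wall, which softens the flesh, and the formation of volatile esters from fatty acids. Auxin, which is known to delay ripening in several fruits, is moved by PIN carriers, read through auxin response factors and held back by Aux/IAA repressors.

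Library totals ranged from 9587843 to 10675582 counts in H4 and from 7778587 to 9201671 counts in H1, so that the H4 libraries were the deeper ones. At these depths 3 counts, the level treated here as a floor, equal 0.299 to 0.324 CPM in H4 and 0.325 to 0.379 CPM in H1. On the scale of log2(CPM + 1) over all genes tested, the root mean square distance was 0.396 to 0.436 between libraries of H4 and 0.419 to 0.493 between libraries of H1, against 0.625 to 0.702 between a library of H4 and one of H1. No pair of replicates was alike within sampling noise, with a chi-square per degree of freedom of 4.07 to 5.17 in H4 and 3.22 to 8.05 in H1. The labelled tissue was not checked against marker genes, since neither the gene identifiers nor the transcript accessions that the study pairs with them matched the gene table used here. In RNA from whole tissue, fewer cells of a type and less RNA per cell cannot be told apart.

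The flesh transcriptome differed widely between H4 and H1. With the quasi-likelihood test of edgeR and a Benjamini-Hochberg adjusted p under 0.05, 7996 genes (34.5% of those tested) were differentially expressed (DEGs), 4199 of them higher in H4 (18.1%) and 3797 lower in H4 (16.4%). Most of these changes were small. Within 1.5-fold in either direction lay 4103 DEGs (51.3%), the log2 fold change had a median size of 0.57 among DEGs and of 0.27 among all genes tested, and the median approximate standard error of the DEGs was 0.10. More than 2-fold changes were found in 1932 DEGs (8.34% of the genes tested), with 791 higher (3.42%) and 1141 lower in H4 (4.93%). Beyond 4-fold the counts were 230 higher and 274 lower, beyond 8-fold 96 and 70, and beyond 16-fold 44 and 18, so that rises were fewer among moderate changes and more numerous among the largest ones. In these counts 66 DEGs higher and 80 lower in H4, at or under the floor in every library of one stage, stand at a lower bound. A large fall from a low level therefore cannot be sized. The libraries of both stages did not overlap in 7730 DEGs (96.7%), against 10306 of all genes tested (44.5%). With TMM scaling 52.5% of the DEGs were higher in H4 (95% Wilson interval 51.4 to 53.6%, counting error only). This interval treats genes as independent draws, which genes of the same libraries are not. It does not measure the uncertainty of the share. The share was 51.0% with median-ratio scaling and 48.8% in a fit of the 6 libraries alone, which tested fewer genes, but 39.2% with scaling to the total count. The fit of the 6 libraries called 6653 of 22193 genes tested.

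**Figure D1:**
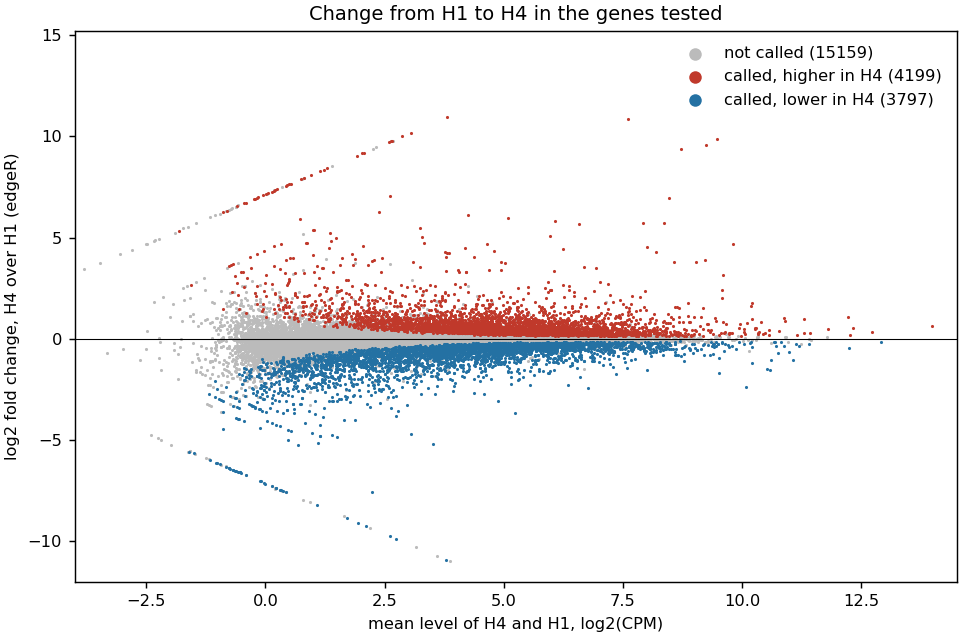
Log2 fold change of H4 over H1 (vertical axis) against the mean level of both stages in log2 CPM (horizontal axis), 1 point per gene tested. Red points are the 4199 genes called higher in H4, blue points the 3797 called lower and grey points those not called, and the oblique lines of points at the left are genes with no count in any library of one stage.

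The genes called higher took 36.5, 37.7 and 38.0% of all counts in the H4 libraries, against 26.4, 27 and 25.8% in the H1 libraries. Those called lower took 17.3, 16.4 and 16.6% in H4 and 25, 25.1 and 24.9% in H1. The 791 genes that rose more than 2-fold accounted for 5.74, 6.66 and 6.62% of the counts in H4, against 2.07, 2.09 and 2.03% in H1. The 1141 genes that fell more than 2-fold held 1.26, 1.14 and 1.18% in H4, against 3.30, 3.41 and 3.19% in H1. The median level over the 6 libraries was 29.9 CPM among all genes called higher and 16.9 CPM among those called lower.

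The direction of the larger changes went with the level of the gene in CPM, which is not scaled to gene length. When the genes tested were ordered by their mean level over the 12 libraries and divided into 5 level classes of 4631 genes each, the lowest class (median 1.56 CPM) had 217 genes higher and 529 lower in H4 by more than 2-fold, with 29.1% of them higher. The second class (median 5.99 CPM) had 186 higher and 318 lower, and the middle class (median 14.9 CPM) 138 and 152. In the fourth class (median 32.7 CPM) the counts were 123 higher and 83 lower, and in the highest class (median 91.7 CPM) 127 and 59, with 68.3% higher. The share of genes called at all was 18.7% in the lowest class and 47.4% in the highest, while the median size of their log2 fold change was 1.71 and 0.38. A gene needs a larger change to be called at a low level, and H4 had the deeper libraries. The filter of 3 libraries is also met more easily by a gene low only in H4 than by one high only in H4. The part of these points in this order was not tested. With total-count scaling the shares of higher genes were 24.2% in the lowest and 57.7% in the highest class, so that the same classes lay below and above equal numbers.

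**Figure D2:**
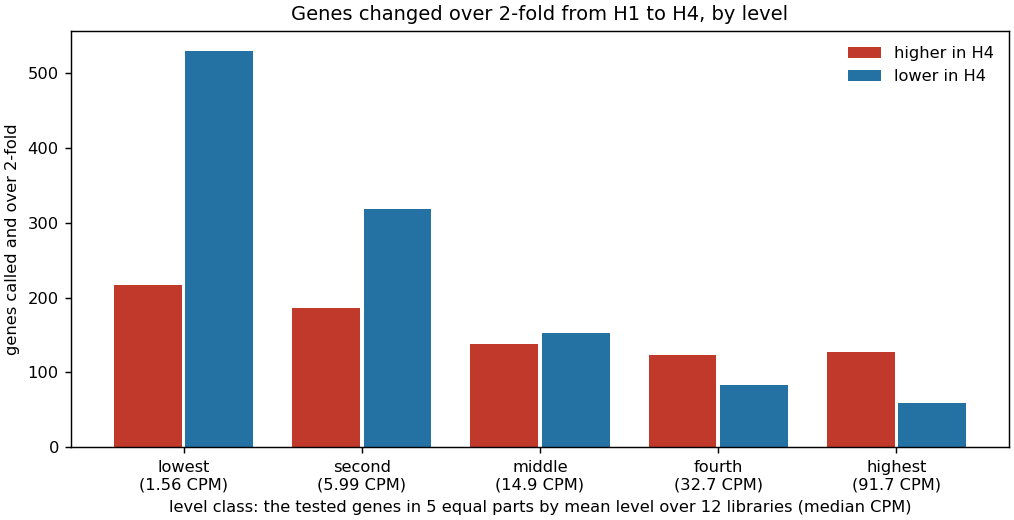
Number of genes called and changed more than 2-fold between H4 and H1 (vertical axis) in 5 classes of the tested genes by mean level (horizontal axis, with the median CPM of the class). Red bars, genes higher in H4, exceed blue bars, genes lower in H4, only in the fourth and the highest class, with 127 against 59 genes in the highest.

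Genes that the study names by function were examined by role. These 41 genes were picked by the study from results on these same libraries, so that their counts are no independent evidence of a direction. Of the 37 that passed the filter on low counts, 25 were called higher and 11 lower in H4, beside 18.1 and 16.4% of all genes tested, and 1 was not called. Their median log2 fold change was 1.26, against 0.0034 over all genes tested.

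Transcripts of genes for ethylene biosynthesis were called higher in H4. Of the 5 genes listed, 4 could be tested, 1 ACS and 3 ACO, and all 4 were called higher, beside 18.1% of all genes tested, with a median log2 fold change of 3.59. The ACO gene PCP011683 had 83.0, 145 and 137 CPM in H4, against 12.4, 13.3 and 10.4 CPM in H1. All H4 libraries lay far above all H1 libraries (log2 fold change 3.34, SE 0.22, adjusted p = 2.1e-07). Before the last week its levels overlapped those of H1, with 11.2, 11.2 and 7.83 CPM in H2 and 9.03, 11.1 and 13.4 CPM in H3. ACS PCP013122, which encodes the enzyme usually limiting for ethylene, had 4.53, 4.19 and 6.04 CPM in H4 and no count in any H1 library. It was at least 13.7-fold higher in H4, computed against 3 counts in each H1 library (adjusted p = 7.2e-05), and H3 already held 0.843, 0.739 and 1.15 CPM. The second ACS gene, PCP011500, had 0.539, 2.20 and 2.33 CPM in H4 and no count in H1, and it did not pass the filter. ACO PCP009685 had 2.70, 4.39 and 4.77 CPM in H4, against 0.505, 0.433 and 0 CPM in H1, a log2 fold change of 3.58 (SE 0.52, adjusted p = 0.00018). Its level in H3 was 1.93, 2.22 and 2.76 CPM, already above every H1 library, unlike PCP011683. Of its steps, H1–H2 was called, from few counts in H1 (log2 fold change 2.10, adjusted p = 0.044). H2–H3 (log2 fold change 0.71, adjusted p = 0.48) and H3–H4 (log2 fold change 0.78, adjusted p = 0.2) were not. ACO PCP022491 had 0.755, 1.30 and 1.27 CPM in H4 and 0, 0.217 and 0 CPM in H1, at least 3.08-fold higher (adjusted p = 0.019). Its call was lost without H1 replicate 1 (adjusted p = 0.061) or H1 replicate 3 (adjusted p = 0.06).

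Both ethylene receptors were called higher in H4, beside 18.1% of all genes tested. ERS1 (PCP004450) had 37.5, 60.3 and 56.2 CPM in H4, against 11.4, 9.75 and 10.3 CPM in H1 (log2 fold change 2.30, SE 0.18, adjusted p = 8e-07). Levels of 13.9 to 15.9 CPM in H2 and 12.6 to 17.5 CPM in H3 lay above every H1 library, but the step H1–H2 was not called (log2 fold change 0.53, adjusted p = 0.13). The step H3–H4 was (log2 fold change 1.71, adjusted p = 2.3e-05). ERS2 (PCP026971) had 2.91, 5.59 and 5.83 CPM in H4, against 2.02, 2.17 and 1.75 CPM in H1 (log2 fold change 1.26, SE 0.37, adjusted p = 0.018). The stages did not overlap, but the call was lost without H1 replicate 3 (adjusted p = 0.06), H4 replicate 2 (adjusted p = 0.06) or H4 replicate 3 (adjusted p = 0.069).

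Among the AP2/ERF transcription factors, a family that holds the ERF but also APETALA2 genes, all 5 tested were called higher in H4, beside 18.1% of all genes tested, with a median log2 fold change of 2.27. ERF2 (PCP002056) had 26.0, 36.3 and 42.2 CPM in H4, against 1.64, 0.975 and 2.0 CPM in H1 (log2 fold change 4.51, SE 0.23, adjusted p = 3.2e-08). This change was not a steady one, since H2 held 20.6, 19.5 and 18.6 CPM and H3 1.81, 2.43 and 2.42 CPM. The log2 fold changes of its steps, which share libraries with each other and with the full comparison, were 3.68 at H1–H2 (adjusted p = 3.5e-06), -3.13 at H2–H3 (adjusted p = 1.2e-05) and 3.96 at H3–H4 (adjusted p = 2.1e-07). PCP027843 had 1.83, 2.40 and 2.33 CPM in H4 and no count in H1 or H3, at least 6.08-fold higher in H4 than in H1 (adjusted p = 0.0016). PCP014930 had 2.70, 2.60 and 2.33 CPM in H4, against 0.252, 0.542 and 0.751 CPM in H1 (log2 fold change 2.27, SE 0.37). PCP011831 had 4.96, 5.59 and 6.04 CPM in H4, against 1.64, 2.60 and 2.0 CPM in H1 (log2 fold change 1.40, SE 0.26). The abundant APETALA2 gene PCP005843 had 179, 183 and 195 CPM in H4, against 157, 128 and 163 CPM in H1, a small difference (log2 fold change 0.32, SE 0.08, adjusted p = 0.011). It was not called with total-count scaling (adjusted p = 0.061) or with the 6 libraries alone (adjusted p = 0.05, at the threshold). Of the members that did not pass the filter, ERF1 (PCP015040) had no count in H4 and one H1 library at 0.252 CPM, but 1.69, 1.51 and 0.818 CPM in H2. PCP016390 had no count in H4, against 0.379, 1.19 and 1.13 CPM in H1.

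Genes acting on the cell wall were divided, with 4 of 8 called higher and 4 called lower in H4, beside 18.1 and 16.4% of all genes tested, and a median log2 fold change of -0.18. Polygalacturonase (PG, PCP006771), which cuts the pectin backbone, had 768, 877 and 876 CPM in H4, against 0.631, 2.17 and 0.751 CPM in H1. No other gene with a name in the study changed so far upwards among those with counts above the floor in H1 (log2 fold change 9.40, SE 0.22, adjusted p = 1.8e-10). Its level multiplied by a similar factor at each step, although H2–H3 lasted 13 days and the other steps 7 days each. It had 11.2, 8.18 and 10.2 CPM in H2 and 98.6, 78.5 and 77.8 CPM in H3. The corresponding log2 fold changes were 2.99 at H1–H2 (adjusted p = 0.00012), 3.10 at H2–H3 (adjusted p = 1.5e-06) and 3.31 at H3–H4 (adjusted p = 3.3e-08). Pectin esterase PCP011895, which removes methyl groups from pectin, had 5.39, 11.6 and 8.16 CPM in H4 and no count in any library of H1, H2 or H3, at least 23.3-fold higher than in H1 (adjusted p = 0.00019). The pectate lyase PCP026151 differed little, with 192, 196 and 178 CPM in H4, against 136, 129 and 142 CPM in H1 (log2 fold change 0.48, SE 0.07, adjusted p = 0.00015). The xyloglucan endotransglucosylase hydrolase PCP016523, which remodels hemicellulose, had 43.2, 45.8 and 48.7 CPM in H4, against 41.5, 35.5 and 34.4 CPM in H1 (log2 fold change 0.31, SE 0.08, adjusted p = 0.012). That call was lost with total-count scaling (adjusted p = 0.066), with the 6 libraries alone (adjusted p = 0.051), without H1 replicate 3 (adjusted p = 0.059) and without H4 replicate 3 (adjusted p = 0.056).

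The members called lower in H4 were 2 expansin-like genes, a COBRA-like gene and a second pectate lyase. Expansins loosen the wall during growth, and COBRA-like proteins are known from Arabidopsis to guide the deposition of cellulose. The COBRA-like gene PCP011926 had 61.4, 60.1 and 56.5 CPM in H4, against 91.8, 89.2 and 102 CPM in H1 (log2 fold change -0.67, SE 0.06, adjusted p = 5.3e-06). Expansin-like PCP039813 had 0.647, 0.998 and 0.848 CPM in H4, against 3.41, 3.68 and 2.25 CPM in H1 (log2 fold change -1.89, SE 0.35, adjusted p = 0.001). Expansin-like PCP023195 had 0.324, 0.299 and 0.424 CPM in H4, against 1.89, 1.19 and 3.25 CPM in H1 (log2 fold change -2.54, SE 0.73, adjusted p = 0.017). The difference of PCP023195 was no longer called without H1 replicate 3 (adjusted p = 0.069) or H4 replicate 2 (adjusted p = 0.051). Pectate lyase PCP016914 had no count in H4 and 27.8, 12.6 and 0 CPM in H1, so that one H1 library was as low as the H4 libraries. It was called lower by edgeR (adjusted p = 0.011) but not by limma-voom (adjusted p = 0.48).

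All 4 listed genes of the aroma pathway were called higher in H4, beside 18.1% of all genes tested, with a median log2 fold change of 3.87. Lipoxygenase (LOX, PCP002320), which oxidises fatty acids at the start of the pathway, had 9.17, 17.0 and 19.0 CPM in H4, against 3.28, 1.41 and 2.63 CPM in H1 (log2 fold change 2.63, SE 0.34, adjusted p = 6.3e-05). Hydroperoxide lyase (HPL, PCP012365), which cleaves the products to aldehydes, had 49.2, 61.2 and 59.3 CPM in H4, against 6.06, 4.77 and 5.01 CPM in H1 (log2 fold change 3.42, SE 0.13, adjusted p = 2e-09). Alcohol dehydrogenase (ADH, PCP031262), which reduces aldehydes to alcohols, had 9.06, 15.1 and 12.6 CPM in H4, against 0, 0.217 and 0 CPM in H1. It was at least 34.1-fold higher in H4 (adjusted p = 2.7e-05), and no library of H2 or H3 exceeded 0.843 CPM. Alcohol acyltransferase (AAT, PCP024687), which joins alcohols and acyl groups to esters, had 417, 642 and 614 CPM in H4, against 27.1, 26.3 and 30.7 CPM in H1 (log2 fold change 4.32, SE 0.17, adjusted p = 3.3e-09). AAT was already called at H1–H2 (log2 fold change 1.53, adjusted p = 0.00017), as was HPL (log2 fold change 1.27, adjusted p = 0.00019). LOX was not called at that step (log2 fold change -0.03, adjusted p = 0.99), and its largest step was H3–H4 (log2 fold change 2.24, adjusted p = 0.00043).

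**Figure D3:**
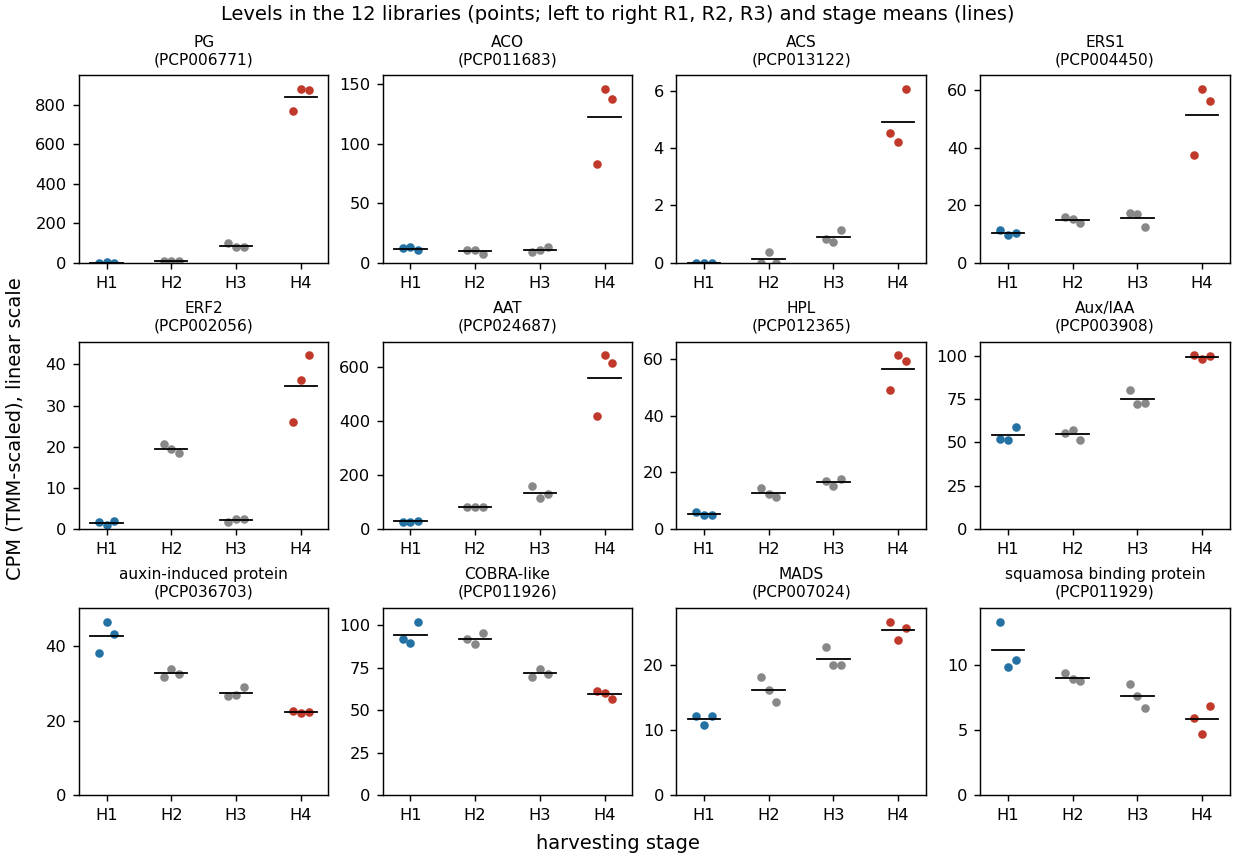
Level in CPM (vertical axes, linear, starting at 0) of 12 named genes in each of the 12 libraries, with harvesting stages H1 to H4 on the horizontal axes; points are libraries and bars are means of 3. ACO before H4 overlaps its H1 levels, ERS1 in H2 and H3 lies above H1 and far below H4, ERF2 peaks in H2 and again in H4, and the mean of MADS is higher at each later stage.

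The auxin group moved in both directions, with 5 of 9 tested genes called higher, 3 called lower and 1 not called, beside 18.1% higher and 16.4% lower of all genes tested. The median of their log2 fold changes was 0.88. The Aux/IAA gene PCP003908 had 100.1, 98.0 and 99.9 CPM in H4, against 51.9, 51.2 and 59.1 CPM in H1 (log2 fold change 0.88, SE 0.07, adjusted p = 1e-06). Its level in H2 was 51.2 to 57.1 CPM, and the steps H2–H3 (log2 fold change 0.46, adjusted p = 0.0021) and H3–H4 (log2 fold change 0.40, adjusted p = 0.0012) were both called. The IAA-like auxin responsive factor PCP012166 had 152, 164 and 159 CPM in H4, against 82.7, 92.7 and 83.7 CPM in H1 (log2 fold change 0.87, SE 0.06, adjusted p = 6e-07). Its H3 libraries, at 167, 146 and 149 CPM, overlapped those of H4, with a log2 fold change of 0.04 at H3–H4 (SE 0.06, adjusted p = 0.71). The auxin-induced protein PCP019182 had 35.8, 38.2 and 38.4 CPM in H4, against 17.2, 17.8 and 15.5 CPM in H1 (log2 fold change 1.15, SE 0.11). The auxin responsive protein PCP012330 had 4.21, 5.19 and 5.51 CPM in H4, against 0, 0.108 and 0.25 CPM in H1, at least 13.8-fold higher (adjusted p = 7e-05). PCP022563 had 1.73, 2.40 and 2.33 CPM in H4, against 0.631, 0.758 and 0.376 CPM in H1 (adjusted p = 0.024). The call for PCP022563 was lost without H1 replicate 1 (adjusted p = 0.056), H1 replicate 3 (adjusted p = 0.081), H4 replicate 2 (adjusted p = 0.061) or H4 replicate 3 (adjusted p = 0.063).

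The efflux carrier PIN3 (PCP021016) was called lower, with 2.48, 2.0 and 2.23 CPM in H4, against 5.05, 5.20 and 6.51 CPM in H1 (log2 fold change -1.32, SE 0.23, adjusted p = 0.00064). The auxin-induced protein PCP036703 had 22.6, 22.0 and 22.4 CPM in H4, against 38.2, 46.7 and 43.3 CPM in H1 (log2 fold change -0.94, SE 0.08, adjusted p = 1.3e-06), and its levels in H2 and H3 lay in between. The auxin response factor PCP022634 had 70.1, 72.0 and 60.7 CPM in H4, against 90.2, 78.1 and 84.7 CPM in H1 (log2 fold change -0.32, SE 0.08, adjusted p = 0.0097). PCP011951, an auxin-induced protein, was not called (adjusted p = 0.095). One H4 library had 12 CPM while the others had 1.19 and 0.499 CPM, against 0.379, 0.325 and 0.125 CPM in H1, and one H3 library had 14.2 CPM. Without that library, H3 replicate 1, the gene was called (adjusted p = 0.031). Without H4 replicate 3, the H4 library with 12 CPM, it was far from called (log2 fold change 1.54, adjusted p = 0.59). PCP029646 did not pass the filter, with 0.755, 0.799 and 0.954 CPM in H4, against 0.126, 0 and 0 CPM in H1.

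Of 5 further transcription factors, 1 was called higher and 4 lower in H4, beside 18.1 and 16.4% of all genes tested, with a median log2 fold change of -1.25. The MADS gene PCP007024, of a family with known ripening regulators in tomato, had 26.6, 23.8 and 25.7 CPM in H4, against 12.1, 10.7 and 12.1 CPM in H1 (log2 fold change 1.12, SE 0.10, adjusted p = 3.9e-06). The NAC gene PCP013432 had 1.19, 1.30 and 1.17 CPM in H4, against 4.16, 2.71 and 2.13 CPM in H1 (log2 fold change -1.29, SE 0.33, adjusted p = 0.0089). A second NAC gene, PCP007739, had 0.431, 0.699 and 0.530 CPM in H4, against 2.15, 3.36 and 0.876 CPM in H1 (log2 fold change -1.92, SE 0.55, adjusted p = 0.016). It was not called by limma-voom (adjusted p = 0.054), without H1 replicate 2 (adjusted p = 0.082) or without H4 replicate 1 (adjusted p = 0.051). Squamosa binding proteins, a family of plant-specific factors, were represented by a pair of genes. PCP011929 had 5.93, 4.69 and 6.89 CPM in H4, against 13.4, 9.86 and 10.4 CPM in H1 (log2 fold change -0.94, SE 0.17, adjusted p = 0.00074). PCP036084 had 0.971, 6.59 and 7.84 CPM in H4, against 12.4, 11.3 and 13.3 CPM in H1, with one H4 library far below the others (log2 fold change -1.25, SE 0.42, adjusted p = 0.035). Its call was lost with DESeq2 (adjusted p = 0.057), with the 6 libraries alone (adjusted p = 0.087), without H1 replicate 1 (adjusted p = 0.072) and without H1 replicate 3 (adjusted p = 0.077).

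**Figure D4:**
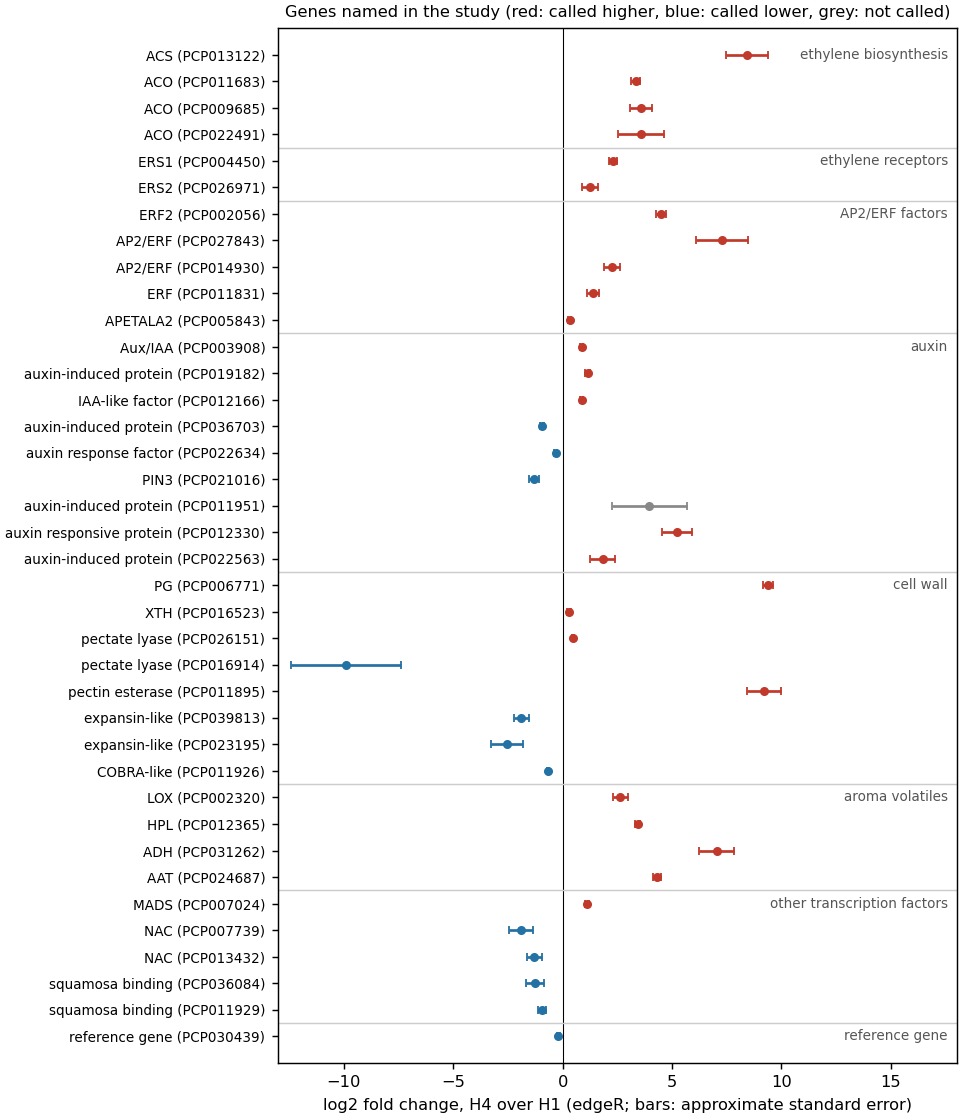
Log2 fold change of H4 over H1 (horizontal axis) for the 37 named genes tested and the reference gene of the study, grouped by role, with bars for the approximate standard error. Red points are called higher, blue points called lower and the grey point, PCP011951, was not called; the ethylene, receptor, AP2/ERF and aroma groups lie to the right of 0, and the cell wall and auxin groups on both sides. Points of genes with no count or few counts in one stage have wide bars, and their position is no bound on the change.

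The gene that the study used as a reference for PCR, PCP030439, had 35.5, 40.0 and 38.3 CPM in H4, against 45.1, 44.1 and 41.3 CPM in H1 (log2 fold change -0.20, SE 0.06, adjusted p = 0.03). The groups did not overlap, but the call depended on the processing. It was lost with DESeq2 (adjusted p = 0.066), with the 6 libraries alone (adjusted p = 0.06), without H1 replicate 1 (adjusted p = 0.098), H1 replicate 2 (adjusted p = 0.058), H4 replicate 1 (adjusted p = 0.094) and H4 replicate 3 (adjusted p = 0.06).

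The most extreme changes were found among genes that carry no name in the files or in the study. On the scale of log2(CPM + 1), PCP013494 rose most, with 947, 1655 and 1634 CPM in H4, against 1.51, 1.84 and 1.13 CPM in H1 (log2 fold change 9.86, SE 0.30, adjusted p = 5.1e-10). PCP009612 followed, with 843, 1476 and 1329 CPM in H4, against 1.26, 1.63 and 1.75 CPM in H1 (log2 fold change 9.60, SE 0.28, adjusted p = 3.4e-10), and PG was the third. In H3, one week earlier, PCP013494 had 21.1 to 23.1 CPM and PCP009612 had 19.9 to 21.3 CPM. The 10 largest rises spanned fitted changes of 51.2-fold to 1834-fold, and all 10 were called at H3–H4, a step at which 20.5% of all genes tested were called in either direction. PCP018708 fell most, with no count in H4 and 31.0, 25.1 and 27.2 CPM in H1, at least 88.6-fold lower (adjusted p = 0.0055). In H3 it had 20.5 CPM in one library and no count in the others. PCP000690 had 0.971, 0.299 and 0.530 CPM in H4, against 21.8, 22.5 and 22.9 CPM in H1 (log2 fold change -5.21, SE 0.23, adjusted p = 7.4e-09), and H2 (12.2 to 14.9 CPM) and H3 (4.70 to 5.41 CPM) lay in between. Of the 10 largest falls, 6 were called at H3–H4 and 4 had every H4 library at or under 3 counts. The H4 libraries that chose these genes also enter that step, so that nothing is read from these counts of calls. Some of the 10 largest falls had no count in a library beside clear levels in others of the same stage, as PCP018708 did in H3. Another had 0, 28.0 and 25.8 CPM in H4, and a further one 0, 9.69 and 9.35 CPM in H2. Whether such zeros reflect expression was not tested.

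Some genes were close to silent at one end of the window. At or under 3 counts in every H1 library and at 1 CPM or more in every H4 library were 53 genes, of which 32 had no count in H1. Their median in H4 was 2.74 CPM and the highest 28.1 CPM. In H2, 28 of them were still at or under 3 counts in every library, and in H3 16 were, while 6 had reached 1 CPM in every H3 library. The reverse pattern, at or under 3 counts in every H4 library and at 1 CPM or more in every H1 library, was met by 43 genes, of which 18 had no count in H4. Their median in H1 was 1.97 CPM and the highest 27.8 CPM, and 15 were at 1 CPM or more in every H2 library but only 1 in every H3 library. With a level of 5 CPM in place of 1 CPM, 11 genes were gained and 3 lost. Leaving out a library relaxes the rule: it gave 63 to 76 genes gained, and for genes lost 71 without H1 replicate 1, 76 without H1 replicate 2, 64 without H1 replicate 3, 70 without H4 replicate 1, 71 without H4 replicate 2 and 81 without H4 replicate 3.

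Most of the change over the window lay in its last 7 days. In the model of all 12 libraries the steps of a gene add up to its full change. For the median DEG, 25.4% of the change lay in H1–H2 (7 days), 16.0% in H2–H3 (13 days) and 59.1% in H3–H4 (7 days). Among genes called higher the median log2 fold changes were 0.14, 0.08 and 0.31 at these steps, and among genes called lower -0.16, -0.10 and -0.37. Genes that changed more than 2-fold were similarly divided, with medians of 0.39, 0.34 and 0.75 for rises and -0.39, -0.33 and -0.86 for falls. The largest step in the direction of the full change was H3–H4 for 4960 DEGs (62.0%), H1–H2 for 1833 (22.9%) and H2–H3 for 1203 (15.0%). These shares are a description: the genes were selected on H4 against H1, whose replicate errors enter the outer steps and not H2–H3. When single libraries were left out, the share at H3–H4 stayed between 56.4 and 62.2%.

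**Figure D5:**
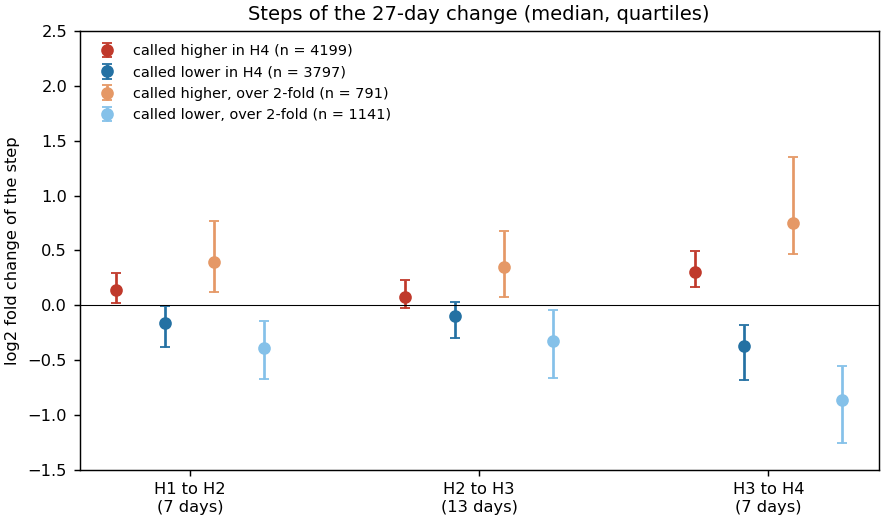
Median log2 fold change (points) and quartiles (bars) of each step between harvesting stages (horizontal axis, with its length in days) for the genes called higher or lower in H4 against H1, all and over 2-fold. The H3–H4 step is the farthest from 0 in each of the 4 groups, with medians of 0.31, -0.37, 0.75 and -0.86.

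H4 replicate 1 stood apart from the other H4 libraries in many of the genes that rose. It was the lowest of the H4 libraries in 513 of the 791 genes that rose more than 2-fold (64.9%), against 35.8% of all genes tested, with a median log2 difference of -0.17 from the other libraries of the stage. It was also the lowest in 20 of the 25 named genes called higher and in all 10 of the largest rises, where the median difference was -0.63. Among the 1141 genes that fell more than 2-fold it was the highest of its stage in 488 (42.8%), against 31.7% of all genes tested, and the lowest in 257 (22.5%). The cause was not tested. ACO PCP011683 and AAT are examples among the rises, with 83.0 and 417 CPM in H4 replicate 1. Without this library 7245 genes were called, 757 higher and 1203 lower by more than 2-fold.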

How the data were processed

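The authors used HISAT2 to align single-end reads to the genome of Pyrus communis, and StringTie to quantify genes. Versions, the genome build and the step to counts are not given in the sources used here. The deposited table is named for FPKM, but its values were read as raw counts, since the library values of all 45217 genes are whole numbers and library totals differ. The 4 stage columns, a signal computed by the authors as the mean of 3 libraries, were not used. The labels describe libraries without strand information, so that overlapping or antisense genes and near-identical copies may share reads, and they name another kit, sequencer and read length than the study's methods.

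Counts of all 12 libraries entered one edgeR model (version 4.0.16, under R 4.3.3) with 1 term per stage, TMM scaling and an abundance trend, tested by quasi-likelihood. Genes reaching 1 CPM in 3 or more libraries were kept. P-values were adjusted over all genes tested by the Benjamini-Hochberg method, with a threshold of 0.05. Standard errors are approximate (size of the log2 fold change over the square root of F). A stage with every library at or under 3 counts was set to 3 counts per library for lower bounds and for counts of genes changed over 2-fold. The study calls the replicates biological but the sources do not say which trees or fruit each holds, so that p-values measure the spread between these samples. DESeq2 1.42.0 and limma 3.58.1 served as alternatives. Tables were made with pandas 2.3.3 and scipy 1.17.1 in Python 3.11.15, figures with matplotlib 3.10.9. The test was run on counts simulated with the dispersions of its own model. In these, 200 of 23155 genes were changed 2-fold, none of them at low counts. It found 78% of them, with 7 false calls. Such data cannot check the scaling, genes near the floor or a change as wide as the one seen here.

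Named genes are those with an identifier and a name in the study, its reference gene, and the first 2 of the 10 largest rises and falls on log2(CPM + 1) stage means among called genes whose libraries do not overlap and whose mean is at least 1 CPM. Genes and lists were chosen with earlier results of these data known. Of the gene identifiers, and of 6164 RefSeq accessions that the study's supplement pairs with them, 0 matched the RefSeq gene table used here, which holds no product names, so that planned keyword and tissue marker lists were not applied, and no sequence is shown. CPM was not scaled to gene length, since gene lengths were not at hand. The level classes and the median levels by direction therefore mix transcript abundance with gene length.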

Additional observations from a re-analysis of the deposited data

How the results depend on the processing

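Every direction of the named genes held under all settings that gave the gene a value, and of 812 single values 31 lost and 1 gained a call. Some genes did not pass the filter under some settings and had no value there. Pectin esterase PCP011895 had none when an H4 library was left out, so that its rise was not checked in this way. The number of genes called was 6653 to 8145 under the other scalings, filters, tools and the fit of 6 libraries, and 6607 to 8110 when single libraries were left out. The share of called genes higher in H4 was 39.2% with total-count scaling, which moved the median log2 fold change of all genes to -0.08, 51.0% with median-ratio scaling, 48.8% with the 6 libraries alone and 50.9 to 53.0% without single libraries. A filter of 5 CPM left 1146 genes called over 2-fold and 23 listed genes called, with fewer genes tested, and as the level in the expressing stage it gave 11 genes gained and 3 lost. Leaving out single libraries gave 63 to 76 genes gained and 64 to 81 lost. The 5 level classes were a division chosen after seeing the data. In the lowest class the share of higher genes among those changed over 2-fold was 24.2% with total-count scaling, 36.7% with the 5 CPM filter and 23.3 to 31.5% without single libraries. With no filter it was 21.9%, from only 7 genes higher and 25 lower in a class of other, scarcer genes. In the highest class the share was 57.7% with total-count scaling and 66.7 to 70.4% without single libraries. The causes were not tested. Deviations of same-numbered libraries of H4 and H1 correlated at 0.08, 0.12 and -0.04 for replicates 1, 2 and 3. Libraries with different numbers correlated at -0.14 to 0.09. With 3 libraries per stage, these values cannot settle whether replicate numbers share a batch. The replicate block gave 7848 genes called, 53.0% of them higher in H4. PCP018708 had no adjusted p with DESeq2. Depth limits the genes near 3 counts, where a change cannot be sized.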
